A study of Mus musculus with 23 samples.

Results

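Glutamate is the main excitatory transmitter of the hippocampus, and the genes described here encode the machinery that receives it. They are 40 genes, found by symbol in a count table of 55335 genes, with 1 row for each symbol. By class they were 4 AMPA receptor subunits, 6 NMDA receptor subunits, 5 kainate receptor subunits, 1 delta receptor, 5 metabotropic receptors, 8 AMPA receptor auxiliary subunits, 2 kainate receptor auxiliary subunits, 7 scaffold genes and 2 kinase genes.

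Hippocampus had been microdissected from 23 female mice and sequenced, 1 RNA library a mouse, in 6 groups. The 3xTg strain models Alzheimer's disease and carries human APP with the Swedish mutation and human tau with the P301L mutation, both under a neuron-specific Thy1.2 element. Its control (WT) is labelled a C57BL/6J and 129S1 hybrid, so the strains may also differ in background alleles. Untreated mice of 8 months made up WT-8M and 3xTg-8M, 4 of each. Mice of 10 months had received 28 days of infusion into the lateral ventricles of 80 µM of an inhibitor of stearoyl-CoA desaturase (SCDi) or of its vehicle, which holds 0.8% DMSO. Vehicle was given to WT-D and 3xTg-D, 4 mice each, and inhibitor to WT-S, 3 mice, and 3xTg-S, 4 mice. Age, infusion and anything else that differed between the 8-month and the 10-month mice cannot be told apart. Only the titles of the 8-month samples carry an L beside the tissue code, and its meaning is not given in the sources used here.

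AMPA receptors carry most of the fast excitatory current, and NMDA receptors admit calcium when glutamate meets a depolarised membrane, which makes them central to plasticity. Kainate receptors act on both sides of the synapse, delta receptors work mainly as synaptic organisers, and metabotropic receptors signal through G proteins. Auxiliary subunits (Cacng, Cnih, Shisa and Neto proteins) set the traffic and gating of the receptors, the membrane-associated guanylate kinases (Dlg genes) and Shank proteins hold them in the postsynaptic density, and CaMKII (Camk2a, Camk2b) is the kinase that follows calcium entry.

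Gene counts per library ran from 12.8M to 36.7M in the 8-month set and from 12.99M to 17.6M in the 10-month set. The smallest count of any of the 40 genes in a library was 84. Levels are given as CPM, a gene's share of the library's counts scaled by TMM factors. Thy1, whose element drives the transgenes, was at 1335 to 2317 CPM in the 12 3xTg libraries and at 522 to 739 CPM in the 11 WT libraries, so all libraries followed their strain label. Markers of neurons summed to 8251 to 9738 CPM, and all markers of CA1, CA3 and dentate gyrus were detected in each library. Markers of choroid plexus summed to 205 to 776 CPM and varied within groups.

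Transcript length bears on most of the 40 genes. The median of their longest transcripts was 5528 bases (1343 for Cnih2 to 24060 for Grin2b), against 3341 bases over the 15483 genes tested at 8 months, and 35 of the 40 were longer than that median. The slope of log2 CPM on log2 transcript length was therefore fitted in each library. It was 0.92 to 0.99 in WT-8M, 0.80 to 0.97 in 3xTg-8M, 1.02 to 1.04 in WT-D, 1.04 to 1.07 in 3xTg-D, 0.98 to 1.02 in WT-S and 0.92 to 1.03 in 3xTg-S. A low slope means fewer reads on long transcripts. The lowest slope at 8 months was that of 3xTg-8M replicate 4 (0.80), which also had the largest share of reads in lines naming no gene (30.9%), and the lowest at 10 months was that of 3xTg-S replicate 2 (0.92).

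Between genes, levels were compared per kilobase of exon (RPKM), here in WT-8M as mean ± SD over 4 libraries. The length was that of all annotated exons of a gene merged, not that of its longest transcript. These lengths differed unequally, with 9125 against 4125 bases for Camk2b and 6043 against 5546 bases for Gria1. The order given here holds for merged exons only. Camk2a, the alpha subunit of CaMKII, stood highest at 458 ± 71.8 RPKM. It was followed by the AMPA receptor subunit Gria1 (205 ± 16.6 RPKM), the AMPA receptor auxiliary subunit Cnih2 (148 ± 37.8 RPKM) and Camk2b (116 ± 12.5 RPKM). The libraries of Gria1 and Cnih2 overlapped, as did those of Cnih2 and Camk2b. Gria2, the subunit that makes AMPA receptors impermeable to calcium, came next at 80.2 ± 5.29 RPKM.

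By merged exons, the leading gene of the scaffold class was Dlg3 (SAP102, 40.9 ± 2.30 RPKM), whose libraries overlapped those of Dlg4 (PSD-95, 40.3 ± 3.07 RPKM). In the same range lay the leading metabotropic receptor Grm5 (39.9 ± 4.24 RPKM) and the obligatory NMDA receptor subunit Grin1 (38.8 ± 3.08 RPKM). Merged exons of Dlg3 spanned 5844 bases and its longest transcript 5017 bases, against 13251 and 6326 bases in Dlg4. Levels per longest transcript were not computed. The leading kainate receptor auxiliary subunit was Neto1 (27.3 ± 3.77 RPKM), the leading kainate receptor subunit Grik5 (26.2 ± 1.57 RPKM), and the delta receptor gene Grid1 stood at 12.1 ± 0.49 RPKM.

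Between those genes, from 35.8 down to 13.1 RPKM, lay Shank1, Cacng8, Gria3, Shisa7, Dlg2, Grin2b, Grin2a, Shisa6, Shank3, Grm3, Cnih3, Cacng3, Dlg1, Neto2, Shisa9, Cacng2, Gria4 and Shank2, in that order. Each overlapped its neighbour in the order. Below Grid1 came Grm7 (10.4 RPKM), Grik4, Grik2, Grin2c, Grin3a and Grik3 (5.94 RPKM). Grik1 (2.71 RPKM), Grm4 (1.54 RPKM), Grm8 (1.17 RPKM) and Grin2d (1.01 RPKM) were lowest, each of the last 3 overlapping the next. NMDA receptor subunits thus spanned from 38.8 RPKM for Grin1 to 1.01 RPKM for Grin2d.

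**Figure D1:**
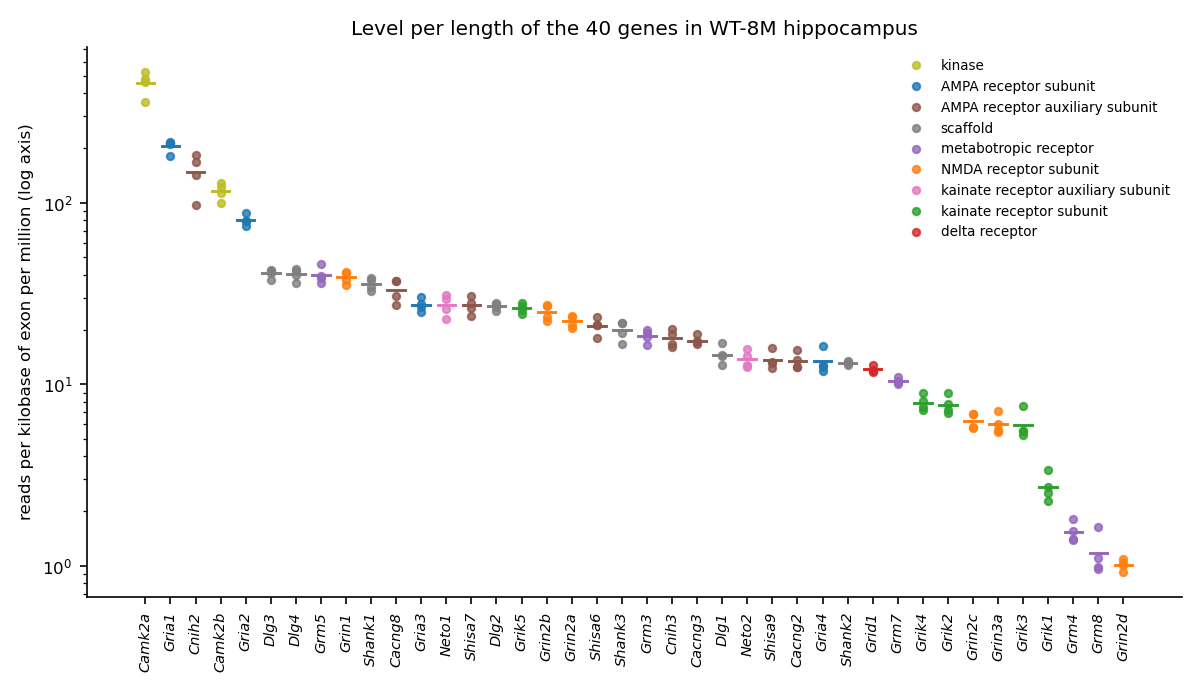
Each point is 1 of the 4 WT-8M libraries and each bar their mean, in RPKM by merged exons on a log axis, for the 40 genes coloured by class and ordered by mean. Camk2a stood at 458 RPKM and Grin2d at 1.01 RPKM, and most neighbours in the order overlapped.

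Counts of some genes may hold reads of other genes, since no source used here gives the strand setting of the counter. Exons of 19 of the 40 genes overlapped those of another annotated gene. The overlap exceeded 300 bases in 4 of them: Grin1 (1307 bases), Grin2d (643 bases), Shank1 (339 bases) and Cacng2 (323 bases). Cnih3 had no overlap, and that of Grin2c was 91 bases.

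Across the 6 pairwise comparisons, 2 of the 40 genes differed at an adjusted p under 0.05 (edgeR's quasi-likelihood test with Benjamini-Hochberg adjustment over all tested genes): the NMDA receptor subunit gene Grin2c and the AMPA receptor auxiliary subunit gene Cnih3. Grin2c (mouse genome GRCm38, chromosome 11, 115249169 to 115267243, minus strand) encodes GluN2C, a subunit that gives NMDA receptors weak magnesium block and is best known from cerebellar granule cells and astrocytes. Cnih3 (chromosome 1, 181352628 to 181460641, plus strand) encodes a cornichon protein that slows the closing of AMPA receptors. The 250 bases before the annotated start of each are shown because these were the 2 genes called. GC boxes (GGGCGG or its reverse complement CCGCCC, the usual contact of Sp factors) are in capitals. The letters are from RefSeq on GRCm38.p6, 5′ to 3′ on the strand of the gene.

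Grin2c, chr11:115267244-115267493, minus strand: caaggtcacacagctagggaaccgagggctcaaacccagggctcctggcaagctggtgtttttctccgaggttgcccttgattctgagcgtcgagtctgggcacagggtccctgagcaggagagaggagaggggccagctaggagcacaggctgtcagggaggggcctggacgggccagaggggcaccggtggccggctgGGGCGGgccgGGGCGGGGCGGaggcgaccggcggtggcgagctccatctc

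Cnih3, chr1:181352378-181352627, plus strand: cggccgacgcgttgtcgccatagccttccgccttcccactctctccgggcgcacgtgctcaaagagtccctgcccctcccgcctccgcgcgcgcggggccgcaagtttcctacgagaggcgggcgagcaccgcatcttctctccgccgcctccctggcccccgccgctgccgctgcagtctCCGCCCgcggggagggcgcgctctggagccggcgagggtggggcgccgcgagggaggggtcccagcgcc

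The Grin2c stretch held 3 GC boxes, which began 35 to 50 bases before the start and of which the last pair share a base, and the Cnih3 stretch held 1, which began 69 bases before the start. Of the 40 genes, 25 had a RefSeq entry, and 14 of these (56%) held a GC box, against 32.7% of 32851 promoter stretches of the same length. Some of the 25 stretches lay far from the Gencode start of the gene. The distance was 614114 bases for Dlg2, 11697 for Grin2d, 6773 for Dlg3, 3359 for Cacng8 and 1252 for Cacng3, and none of these held a GC box. An E box (CACGTG, the same on both strands) was found in 3 of the 25, Grin1, Cnih3 and Dlg1 (12%), against 6.02% of all. The cyclic AMP response element (TGACGTCA, the same on both strands) was in 0 of the 25, against 1.55% of all. The 25 stretches had a median of 64.8% G and C, against 52.4% over all, and these matches are a description of the letters only.

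The first comparison asked how the strains differed without treatment at 8 months. Of the 40 genes, 1 rose in 3xTg-8M, Grin2c, and 0 fell, while 2.58% of the 15483 genes tested were called in this comparison. At an unadjusted p under 0.05 stood 4 of the 40 (Grin2c, Grin2d, Grik5 and Neto1), against 17.4% of all tested genes. Grin2c and Grin2d, 2 of the 40, had groups that did not overlap, against 11.2% of all. Most estimates were small: 36 of 40 lay within 0.2 log2 units of 0, and the 95% interval of 37 of 40 lay within 0.5 log2 units of 0.

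Grin2c was at 29.2, 28.7, 34.6 and 34.5 CPM in the 4 WT-8M libraries and at 41.1, 42.7, 45.2 and 40.4 CPM in the 4 3xTg-8M libraries. All 3xTg-8M libraries were thus above all WT-8M libraries. The fitted log2 fold change was 0.41 (SE 0.079, adjusted p = 0.0165 by edgeR's quasi-likelihood test), or 33.3% higher. The call was lost on leaving out WT-8M replicate 2 (log2 fold change 0.37, adjusted p = 0.062) or 3xTg-8M replicate 2 (log2 fold change 0.41, adjusted p = 0.059).

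The length trend gave a log2 fold change of -0.028 at the length of Grin2c, whose estimate was 0.44 with the trend removed and 0.31 with length and GC trends removed. Summed astrocyte markers (Aqp4, Gja1, Aldh1l1, Slc1a3 and Gfap) were at 1619 to 1732 CPM in WT-8M and 1630 to 1936 CPM in 3xTg-8M, with 2 of 5 higher, 3 lower and 0 called. Their part in the Grin2c difference was not tested. In bulk tissue, fewer cells of a type and less RNA per cell cannot be told apart, here and below. Of 50 tested genes that start within 1 Mb of Grin2c, 0 were called.

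Other genes of the NMDA receptor class showed no call at 8 months. Grin2d, a subunit mostly of interneurons, was at 6.73 ± 0.45 CPM (SD, n = 4) in WT-8M and 8.11 ± 0.37 CPM (n = 4) in 3xTg-8M, a log2 fold change of 0.26 with an adjusted p of 0.23 (edgeR), or 0.13 with length and GC trends removed. Its counts are low and may hold reads of the overlapping gene. Interneuron markers summed to 812 to 866 CPM in WT-8M and 830 to 872 CPM in 3xTg-8M, with 4 of 6 higher and 0 called, and their part was not tested. The log2 fold changes of Grin1, Grin2a, Grin2b and Grin3a lay between -0.070 and 0.047.

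Among kainate receptor genes, Neto1 and Grik5 came nearest to the threshold. Neto1, an auxiliary subunit found with kainate receptors and also with NMDA receptors, was at 260, 246, 190 and 216 CPM in WT-8M and at 193, 190, 183 and 171 CPM in 3xTg-8M. Groups overlapped through WT-8M replicate 3. Its log2 fold change was -0.31 with an adjusted p of 0.11 (edgeR), and the trend at its length gave -0.067. Over the 6 fits that kept all libraries the adjusted p ran from 0.024 to 0.27, and 2 of them passed, the DESeq2 likelihood ratio test (0.039) and no filter on low counts (0.024). With length and GC trends removed the log2 fold change was -0.16. Of the 8 fits that left out a library 1 passed, without WT-8M replicate 3 (0.034).

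Grik5, the high-affinity kainate receptor subunit GluK5, was at 126, 132, 144 and 139 CPM in WT-8M and at 157, 150, 161 and 144 CPM in 3xTg-8M. The groups overlapped by 1 library on each side, and the log2 fold change was 0.18 (adjusted p = 0.18, edgeR), or 0.067 with length and GC trends removed. Grik1, the subunit GluK1 of interneurons, was at 22.6, 16.9, 15.2 and 18.2 CPM in WT-8M and at 16.8, 16.5, 19.9 and 17.2 CPM in 3xTg-8M. Its groups overlapped fully.

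The second comparison asked the same of the strains at 10 months under vehicle. Among the 40 genes, 1 fell in 3xTg-D, Cnih3, and 0 rose, while 1.39% of 15528 tested genes were called. At an unadjusted p under 0.05 stood 7 of the 40, against 13.1% of all: Gria4 and Grik1 were higher, and Grid1, Cacng3, Cnih3, Dlg3 and Camk2b were lower. Grin1, Grik1, Grid1 and Cnih3, 4 of the 40, had groups that did not overlap, against 7.95% of all. Within 0.2 log2 units of 0 lay 39 of 40 estimates.

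Cnih3 was at 50.0, 53.1, 50.1 and 52.1 CPM in the 4 WT-D libraries and at 42.8, 42.6, 37.0 and 43.7 CPM in the 4 3xTg-D libraries. All 3xTg-D libraries were below all WT-D libraries, with 3xTg-D replicate 3 lowest. The log2 fold change was -0.31 (SE 0.064, adjusted p = 0.0385, edgeR's quasi-likelihood test), and the level fell by 19.2%. The call did not survive the loss of any 1 of the 8 libraries, which gave adjusted p values of 0.052 to 0.097 at log2 fold changes of -0.33 to -0.24. It was also lost with a block for runs of 4 animal numbers (adjusted p = 0.064).

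The same gene was compared in the inhibitor-treated mice, which share no library with the vehicle groups. Cnih3 was at 50.3, 51.3 and 51.4 CPM in WT-S and at 39.7, 42.0, 40.6 and 46.1 CPM in 3xTg-S. Again all 3xTg libraries were below all WT libraries. The log2 fold change was -0.27, and the adjusted p of 0.098 (edgeR) missed the threshold.

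Over all 15 libraries of 10 months, Cnih3 was at 37.0 to 46.1 CPM in the 8 3xTg libraries and at 50.0 to 53.1 CPM in the 7 WT libraries. At 8 months the strains overlapped, with 55.2, 46.1, 52.1 and 44.4 CPM in WT-8M and 48.0, 41.7, 51.2 and 48.2 CPM in 3xTg-8M (log2 fold change -0.066, adjusted p = 0.72, edgeR). The strain difference at 8 months minus that under vehicle at 10 months was 0.24 on the log2 scale, with an unadjusted p of 0.042 and an adjusted p of 0.51 (edgeR).

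The length trend gave 0.013 at the length of Cnih3, whose log2 fold change was -0.33 with the trend removed. Summed neuron markers were at 9010 to 9738 CPM in WT-D and 8251 to 8800 CPM in 3xTg-D, with 9 of 9 lower, 0 called and a median log2 fold change of -0.11. CA1 markers summed to 494 to 515 CPM in WT-D and 407 to 522 CPM in 3xTg-D, and dentate gyrus markers to 258 to 346 CPM and 219 to 271 CPM. Of CA1 markers 3 of 4 were lower (median -0.17), with 0 called. Of dentate gyrus markers 4 of 5 were lower (median -0.25), with 1 called lower. Of CA3 markers 2 of 4 were lower, with 1 called higher, and of interneuron markers 3 of 6, with 1 called lower. The part of these in the Cnih3 difference was not tested. Of 25 tested genes that start within 1 Mb of Cnih3, 1 was called, the processed pseudogene Gm20305.

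**Figure D2:**
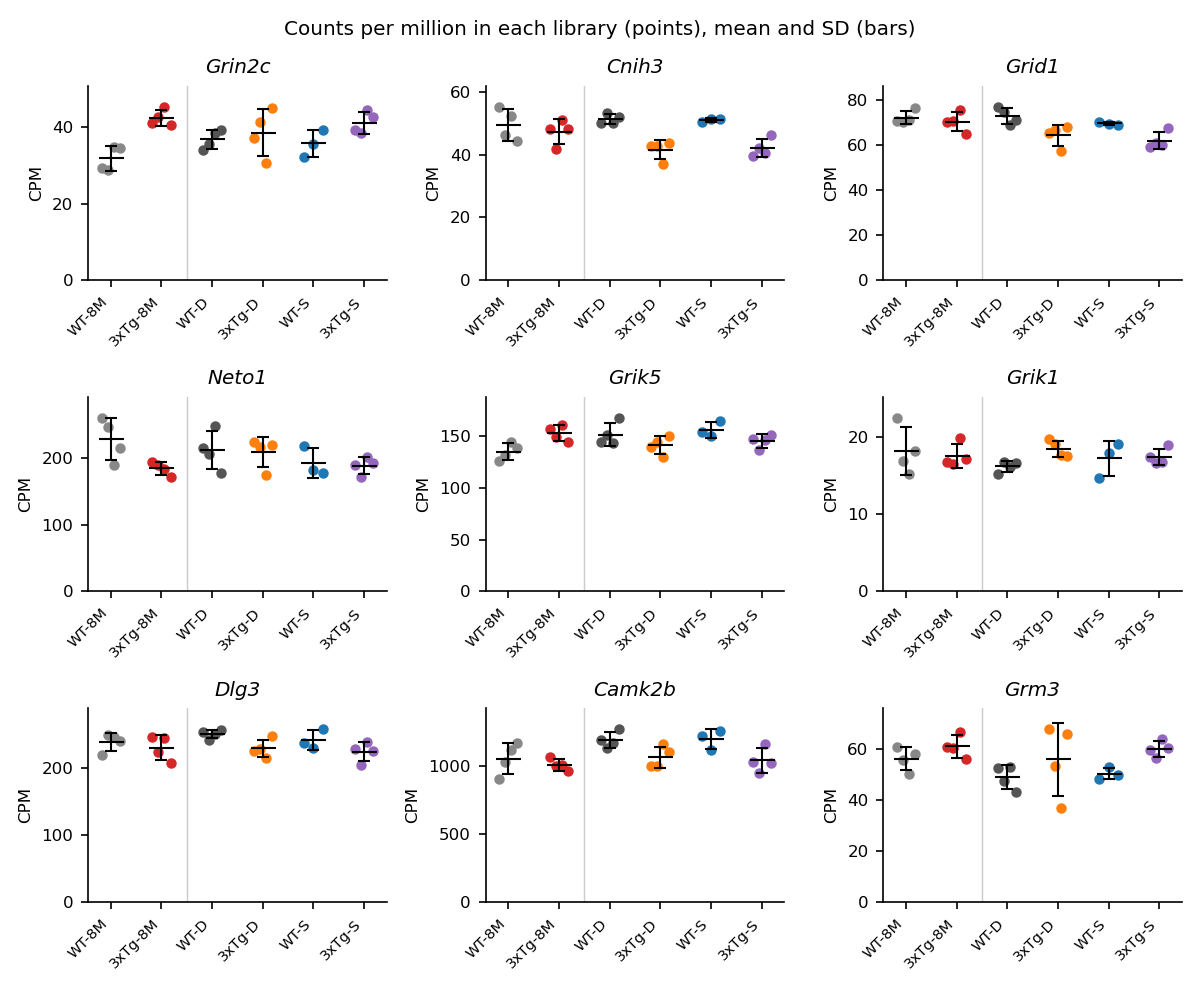
Points are single libraries and bars the mean and SD, in CPM from 0, for 9 genes in the 6 groups; a grey line parts the 8-month from the 10-month groups. For Cnih3 all 3xTg libraries of 10 months lie at 37.0 to 46.1 CPM and all WT libraries of 10 months at 50.0 to 53.1 CPM, and for Grin2c the 3xTg-8M libraries lie above all WT-8M libraries.

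All 8 AMPA receptor auxiliary subunits had estimates below 0 in 3xTg-D, with a median of -0.075, of which Cnih3 alone was called. The direction was shared more widely: 30 of the 40 genes and 46 of 64 other postsynaptic genes (median -0.053) were below 0. Over all tested genes it was 7921 of 15528. Cacng3, a transmembrane AMPA receptor regulatory protein, was at 50.5 ± 3.29 CPM (SD, n = 4) in WT-D and 44.9 ± 3.54 CPM (n = 4) in 3xTg-D (adjusted p = 0.33, edgeR). The remaining 6, Cacng2, Cacng8, Cnih2, Shisa6, Shisa7 and Shisa9, had estimates between -0.094 and -0.020. At 8 months 4 of the 8 had estimates above 0 and 4 below, with a median of -0.00059.

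Grid1, the delta receptor gene, was at 76.8, 74.4, 68.6 and 70.8 CPM in WT-D and at 65.1, 66.6, 57.3 and 67.9 CPM in 3xTg-D. All 3xTg-D libraries were below all WT-D libraries, by a narrow margin. The log2 fold change was -0.18 (adjusted p = 0.24, edgeR), and -0.12 without 3xTg-D replicate 3. Under inhibitor it was at 70.1, 69.3 and 68.9 CPM in WT-S and 59.2, 60.7, 60.1 and 67.4 CPM in 3xTg-S, with a log2 fold change of -0.17 (adjusted p = 0.37, edgeR). At 8 months the strains overlapped, with 70.3, 69.9, 71.1 and 76.2 CPM in WT-8M and 70.2, 70.6, 75.3 and 64.7 CPM in 3xTg-8M.

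In the scaffold and kinase classes 7 of 9 estimates were below 0 in 3xTg-D, with 0 called. Dlg3 was at 254, 243, 251 and 257 CPM in WT-D and at 225, 229, 216 and 247 CPM in 3xTg-D (log2 fold change -0.13, adjusted p = 0.28, edgeR). Camk2b was at 1194, 1137, 1176 and 1277 CPM in WT-D and at 1001, 1006, 1162 and 1104 CPM in 3xTg-D (log2 fold change -0.16, adjusted p = 0.28, edgeR). In both genes 1 library of 3xTg-D lay within the range of WT-D. Dlg1, Dlg2, Dlg4, Shank1, Shank2 and Shank3 had estimates between -0.077 and 0.037.

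Grik1 was at 15.3, 16.8, 16.2 and 16.7 CPM in WT-D and at 19.7, 19.1, 17.7 and 17.6 CPM in 3xTg-D. All 3xTg-D libraries were above all WT-D libraries, with a log2 fold change of 0.19 and an adjusted p of 0.30 (edgeR). The genes that stood out at 8 months did not stand out here. Grin2c was at 34.0, 35.4, 38.3 and 39.2 CPM in WT-D and 37.2, 41.2, 30.6 and 44.8 CPM in 3xTg-D, with a log2 fold change of 0.063. Neto1 was at 215, 206, 248 and 178 CPM in WT-D and at 224, 216, 175 and 219 CPM in 3xTg-D, and Grik5 at 144, 151, 143 and 168 CPM and 140, 144, 130 and 151 CPM.

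Whether a strain difference differed between untreated mice of 8 months and vehicle-infused mice of 10 months was tested gene by gene. Of the 40 genes, 0 were called, while 0.0621% of 16108 tested genes were. Below an unadjusted p of 0.05 were 3 (Grin2c, Grik5 and Cnih3), against 9.57% of all. The Grin2c difference was 0.35 log2 units larger at 8 months than under vehicle at 10 months, with an adjusted p of 0.48, and that of Grik5 was 0.28 larger, with an adjusted p of 0.45 (edgeR). So the absence of a Grin2c call at 10 months was not shown to be a change from 8 months. The sign of the strain difference was the same at both ages in 25 of 40 genes (62.5%), against 54.7% of 15256 genes tested in both.

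**Figure D3:**
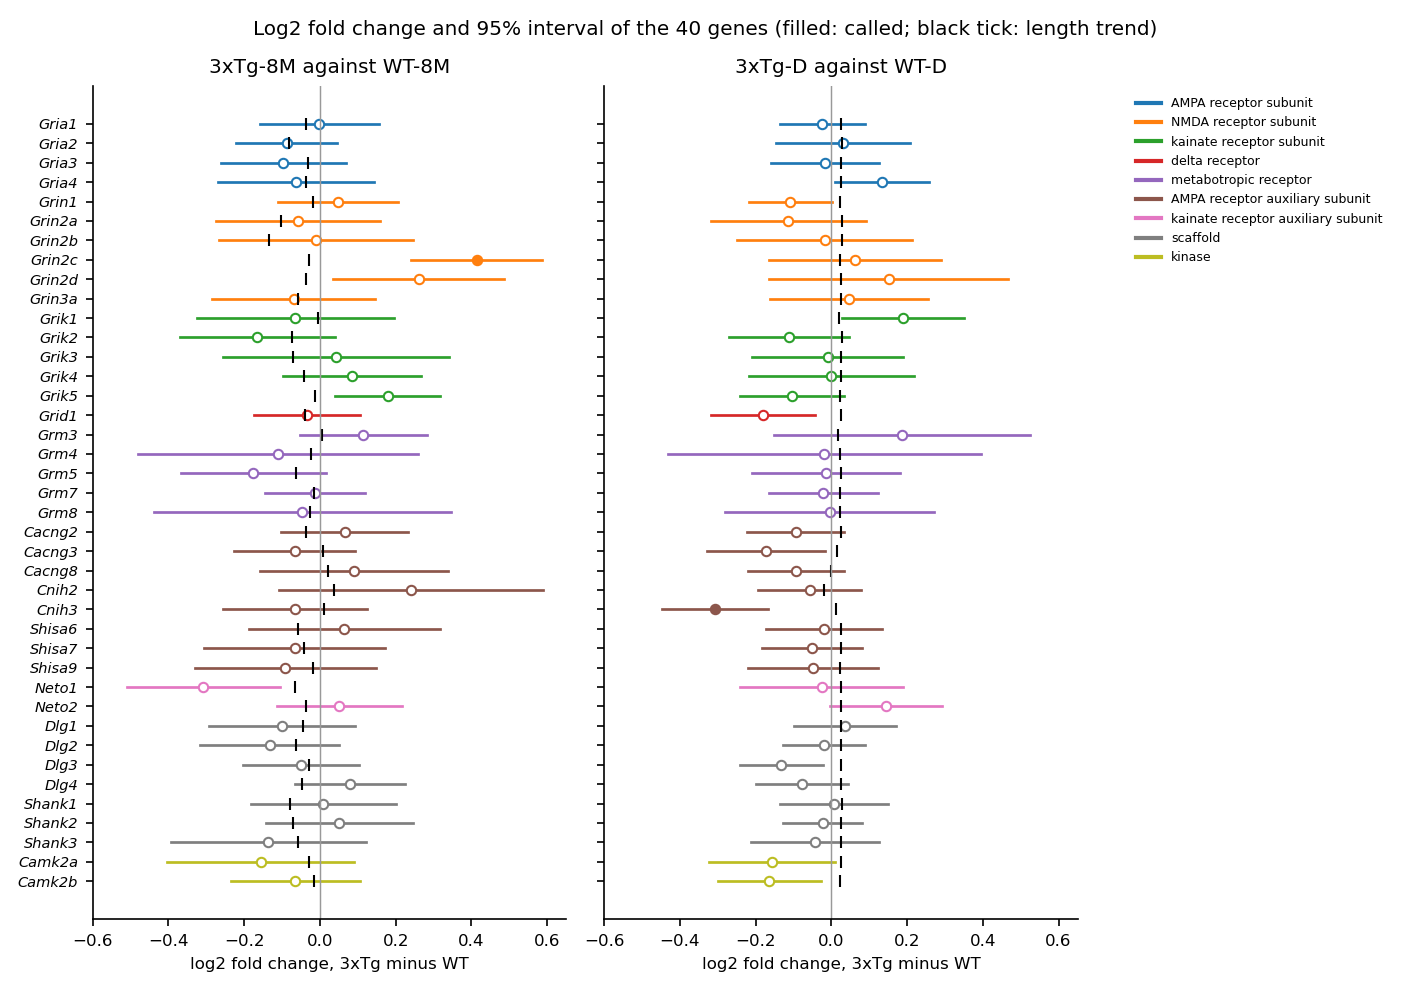
Log2 fold changes of the 40 genes, 3xTg minus WT, with 95% intervals as lines, at 8 months (left) and under vehicle at 10 months (right), coloured by class. Filled points are called (Grin2c at 0.41 and Cnih3 at -0.31), and black ticks mark the fold change that the length trend over all tested genes gives at each gene's length.

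The third comparison asked what the inhibitor did in 3xTg mice. Of the 40 genes 0 were called between 3xTg-S and 3xTg-D by edgeR, as were 0% of the 15530 genes tested, and by the DESeq2 likelihood ratio test 0 of the 40 passed as well. At an unadjusted p under 0.05 stood 5 of the 40 (Gria2, Gria4, Grm5, Neto2 and Dlg2), against 11.2% of all, and all were lower. Non-overlapping groups were found for 3 of the 40, Gria2, Gria4 and Neto2, against 6.98% of all.

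Of the 40 estimates 32 were below 0, with a median of -0.076, against -0.0021 over all tested genes, and the median of the length trend at the 40 lengths was -0.060. With the length trend of each library removed, 25 of 40 were below 0, the median was -0.013, and 0 of the 40 stood at an unadjusted p under 0.05. Over all tested genes the median was then -0.0045, and 852 of 15530 stood at an unadjusted p under 0.05 (edgeR). Gria2 was at 1345, 1231, 1208 and 1159 CPM in 3xTg-D and at 1147, 1095, 1145 and 1129 CPM in 3xTg-S. Its log2 fold change was -0.13, the trend at its length gave -0.12, and the estimate was -0.020 with the trend removed and 0.053 with length and GC trends removed. Without 3xTg-S replicate 2, the library of lowest slope at 10 months, the median over the 40 was -0.031, and without 3xTg-D replicate 4 it was -0.044. Gria2 was at -0.085 without 3xTg-D replicate 1.

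Markers of other cell types also differed in level between these groups. Those of oligodendrocytes summed to 4903, 4108, 2708 and 4653 CPM in the 3xTg-D libraries, with replicate 3 lowest, and to 4762 to 5494 CPM in 3xTg-S. Of these markers 5 of 5 were higher, with a median log2 fold change of 0.32. Those of microglia (5 of 5 higher, median 0.16) and endothelium (4 of 4 higher, median 0.11) were also higher, as were 7 of 9 neuron markers (median 0.074), and 0 in these 4 lists were called. CA3 markers were higher in 4 of 4 (median 0.12). Lower were 4 of 4 thalamus markers (median -0.24), 4 of 6 interneuron markers (-0.11), 3 of 4 CA1 markers (-0.051) and 3 of 4 cortex layer markers (-0.079). Also lower were 3 of 5 dentate gyrus markers (-0.054) and 3 of 5 astrocyte markers (-0.059), and 0 in these lists were called. Their part in the values of the 40 genes was not tested.

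The fourth comparison asked the same in WT mice. Between WT-S and WT-D 0 of the 40 were called by edgeR and 0 by the DESeq2 likelihood ratio test, and edgeR called 0% of the 15724 tested. At an unadjusted p under 0.05 stood 1 of the 40, Neto2, against 3.42% of all, and 0 of the 40 had non-overlapping groups, against 4.9% of all. Neto2, an auxiliary subunit of kainate receptors, was at 93.5, 82.1, 81.3 and 72.6 CPM in WT-D and at 81.4, 64.3 and 53.8 CPM in WT-S. One library of WT-S lay within the range of WT-D. The log2 fold change was -0.31 with an adjusted p of 0.98 (edgeR), and it was -0.48 without WT-S replicate 1 and -0.17 without WT-S replicate 3.

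The inhibitor effect was then compared between the strains over the 15 libraries. By edgeR 0 of the 40 differed, as did 0% of 16262 tested genes, and by the DESeq2 likelihood ratio test 0 of the 40. Of the 40, 0 stood at an unadjusted p under 0.05, against 2.32% of all. The 95% intervals of the 40 had a median half-width of 0.24 log2 units, so smaller differences were not detectable for most of them.

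The 3xTg mice with inhibitor were also set against both WT groups. Against WT-D, which is the control of the 3xTg-D comparison too, 1 of the 40 was called, Cnih3, with a log2 fold change of -0.28 (adjusted p = 0.0377, edgeR), while 2.29% of 15567 genes were. Without any 1 of 7 of the 8 libraries the call was lost, with adjusted p values of up to 0.15, and without 3xTg-S replicate 4 it was kept at 0.033. Below an unadjusted p of 0.05 were 11 of the 40, against 16.9% of all, 2 of them higher (Grin2c and Grm3) and 9 lower. Non-overlapping groups were found for 4 of the 40 (Grid1, Grm3, Cnih3 and Dlg3), against 10.4% of all.

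Against WT-S, 0 of the 40 were called by edgeR, 0 by the DESeq2 likelihood ratio test and 1 (Neto2) with no filter on low counts (adjusted p = 0.0083) or without WT-S replicate 1 (0.014), while edgeR called 1.32% of 15664 genes. The log2 fold change of Neto2 was 0.31, moving to 0.49 without WT-S replicate 1 and 0.18 without WT-S replicate 3. Below an unadjusted p of 0.05 were 8 of the 40, against 10.6% of all, 3 of them higher (Grin2c, Grm3 and Neto2) and 5 lower (Grid1, Cacng3, Cnih3, Dlg4 and Camk2b). Non-overlapping groups were found for 6 of the 40 (Grin2d, Grid1, Grm3, Cacng3, Cnih3 and Dlg4), against 10.7% of all.

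Grm3, a metabotropic receptor that astrocytes also express, was at 59.7, 56.3, 63.9 and 60.2 CPM in 3xTg-S. It was at 48.3, 52.8 and 49.9 CPM in WT-S and at 52.4, 47.6, 52.9 and 43.2 CPM in WT-D, below all 3xTg-S libraries. In 3xTg-D it spread from 36.8 to 67.9 CPM, with replicate 3 lowest. The log2 fold changes were 0.30 against WT-D (adjusted p = 0.059) and 0.25 against WT-S (adjusted p = 0.13, edgeR), and of the 8 fits of the first that kept all libraries, with adjusted p values from 0.014 to 0.26, 2 passed. Grid1 against WT-D had a log2 fold change of -0.23 (adjusted p = 0.078, edgeR), and of its 8 such fits, with adjusted p values from 0.030 to 0.13, 2 passed.

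Astrocyte markers summed to 1626 to 2072 CPM in 3xTg-S, 1410 to 1694 CPM in WT-D and 1564 to 1716 CPM in WT-S. In both comparisons 4 of 5 were higher and 0 were called. Their part in the Grm3 values was not tested. Of the remaining metabotropic receptors, Grm4, Grm5, Grm7 and Grm8, only Grm5 stood at an unadjusted p under 0.05 in any comparison, with log2 fold changes of -0.19 for 3xTg-S against 3xTg-D and -0.20 for 3xTg-S against WT-D, and with adjusted p values of 0.38 and 0.27 (edgeR). With length and GC trends removed the log2 fold changes were -0.084 and -0.15.

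The strain difference had the same sign under vehicle and under inhibitor, in separate mice, in 34 of 40 genes (85%, 27 lower and 7 higher in 3xTg in both). Over 15371 genes tested in both it was 65.7%. The median log2 fold change of the 40 was -0.022 under vehicle and -0.066 under inhibitor, against -0.0029 and 0.0037 over all tested genes. With the length trend removed it was -0.060 and -0.044, against -0.030 and -0.0047 over all tested genes. Part of the move under vehicle was thus shared by all tested genes. Leaving out 1 library moved the median under vehicle to -0.038 (WT-D replicate 2), -0.044, -0.012 and -0.054 (3xTg-D replicates 2, 3 and 4), and under inhibitor to -0.037 (WT-S replicate 1), -0.021 and -0.10 (3xTg-S replicates 2 and 3). The genes are not independent of each other, and this is a description.

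Neuron markers were lower in 3xTg in 9 of 9 under vehicle (median log2 fold change -0.11) and in 8 of 9 under inhibitor (-0.046), with 0 called. Dentate gyrus markers were lower in 4 of 5 in both (-0.25 and -0.25), with 1 called in each. CA1 markers were lower in 3 of 4 under vehicle (-0.17), with 0 called, and in 4 of 4 under inhibitor (-0.11), with 1 called. CA3 markers were lower in 2 of 4 in both (-0.084 and 0.054), with 1 called higher under vehicle. Microglia markers were higher in 5 of 5 in both (0.28 and 0.35), with 1 called in each, and oligodendrocyte markers in 5 of 5 under inhibitor (0.24), with 1 called. Their part in the shared direction of the 40 genes was not tested.

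By class, the medians were small in all comparisons. The kinase genes had the lowest class medians under vehicle among classes with more than 1 gene (-0.16), and under inhibitor (-0.19). AMPA receptor subunits had medians of -0.076 at 8 months and 0.0065 under vehicle, and 4 of 4 estimates were below 0 in both inhibitor comparisons within a strain. NMDA receptor subunits had 3 of 6 estimates above 0 at 8 months and 3 of 6 under vehicle. Removing the length trend turned the sign of the median over the 40 genes at 8 months, from -0.048 to 0.0033, and kept it below 0 in the other 5 comparisons. Over all tested genes the removal moved the 8-month median from 0.0060 to 0.014. In the other 5 comparisons the median over all tested genes was then below 0 too. Leaving out 1 library moved the 8-month median to -0.0097 (WT-8M replicate 1), -0.020 (WT-8M replicate 4), -0.074 (3xTg-8M replicate 3) and 0.0013 (3xTg-8M replicate 4).

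**Figure D4:**
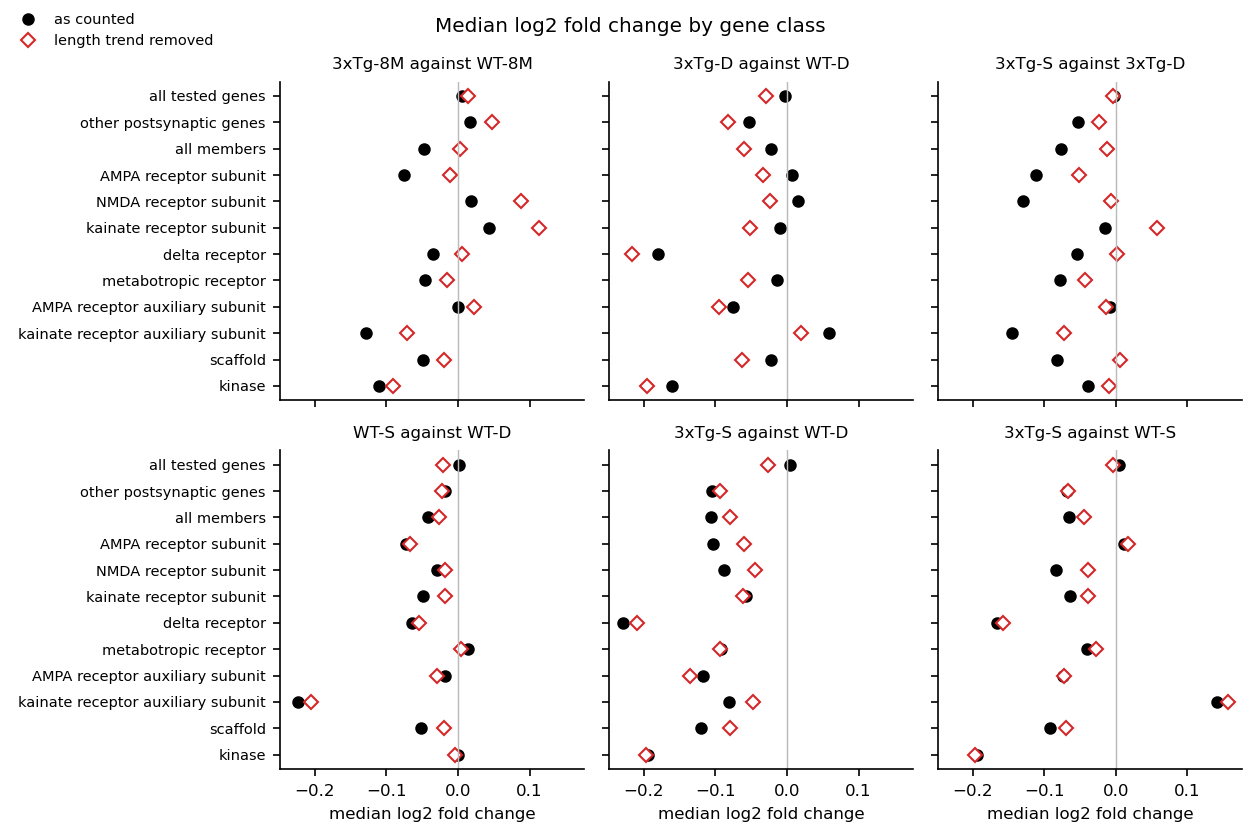
Median log2 fold change (horizontal axis) of each class of the 40 genes, of all 40, of 64 other postsynaptic genes and of all tested genes, in the 6 pairwise comparisons, as counted (black) and with the length trend of each library removed (open red). For 3xTg-S against 3xTg-D the median of the 40 genes moves from -0.076 to -0.013.

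Subunit switches within a family were followed as log2 ratios within each library, which do not depend on scaling. The ratio of Grin2b to Grin2a, which falls as the forebrain matures, was 0.64 ± 0.039 in WT-8M, 0.69 ± 0.12 in 3xTg-8M, 0.41 ± 0.065 in WT-D, 0.49 ± 0.083 in 3xTg-D, 0.46 ± 0.090 in WT-S and 0.48 ± 0.097 in 3xTg-S (log2 CPM, mean ± SD, n = 4, n = 3 in WT-S). The ratio of Gria1 to Gria2 was between -0.0093 ± 0.21 in WT-8M and 0.27 ± 0.18 in WT-S. That of Camk2b to Camk2a was between -1.68 ± 0.12 in WT-8M and -1.56 ± 0.19 in WT-S. None of the 18 differences between groups reached an unadjusted p under 0.2 in two-sided exact permutation tests, whose smallest possible p is 0.0286 with 4 libraries a group and with 4 against 3, and the adjusted p was at least 0.996 in each.

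As a module, the 40 genes were summarised by their mean log2 CPM, centred per gene within each age. The mean lay between -0.030 and 0.031 in WT-8M, -0.13 and 0.076 in 3xTg-8M, 0.032 and 0.057 in WT-D, -0.069 and 0.054 in 3xTg-D, -0.012 and 0.015 in WT-S, and -0.16 and 0.020 in 3xTg-S. The lowest values were those of 3xTg-8M replicate 4 and 3xTg-S replicate 2, the libraries of lowest length slope at their age. With the length trend removed, 3xTg-8M replicate 4 moved from -0.13 to 0.011, and 3xTg-S replicate 2 from -0.16 to -0.10. The lowest value was then that of 3xTg-D replicate 3, at -0.13, which had one of the higher slopes (1.07).

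The mean was also set against the slope across libraries. Most genes in this mean have transcripts longer than the median of all tested genes, and they were among the genes used to fit the slope. A positive relation was therefore to be expected from length alone. The tests cannot tell it from any other relation, so their p-values are given as a description only. At 10 months Pearson's r was 0.68 (adjusted p = 0.026) and Spearman's rho 0.64 (adjusted p = 0.026, permutation tests, n = 15, adjusted over 8 tests), and with both measures centred within groups r was 0.67 and rho 0.58. At 8 months r was 0.88 (adjusted p = 0.053) and rho 0.57 (adjusted p = 0.15, exact permutation tests, n = 8). Within groups at 8 months r was 0.92 and rho 0.62. Without the 2 libraries farthest from the median slope r was 0.19 at 10 months (n = 13, without 3xTg-S replicate 2 and WT-S replicate 3), where the linear relation rests on those libraries, and 0.51 at 8 months (n = 6, without 3xTg-8M replicate 4 and WT-8M replicate 1). Leaving out the ends also narrows the range of slopes.

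**Figure D5:**
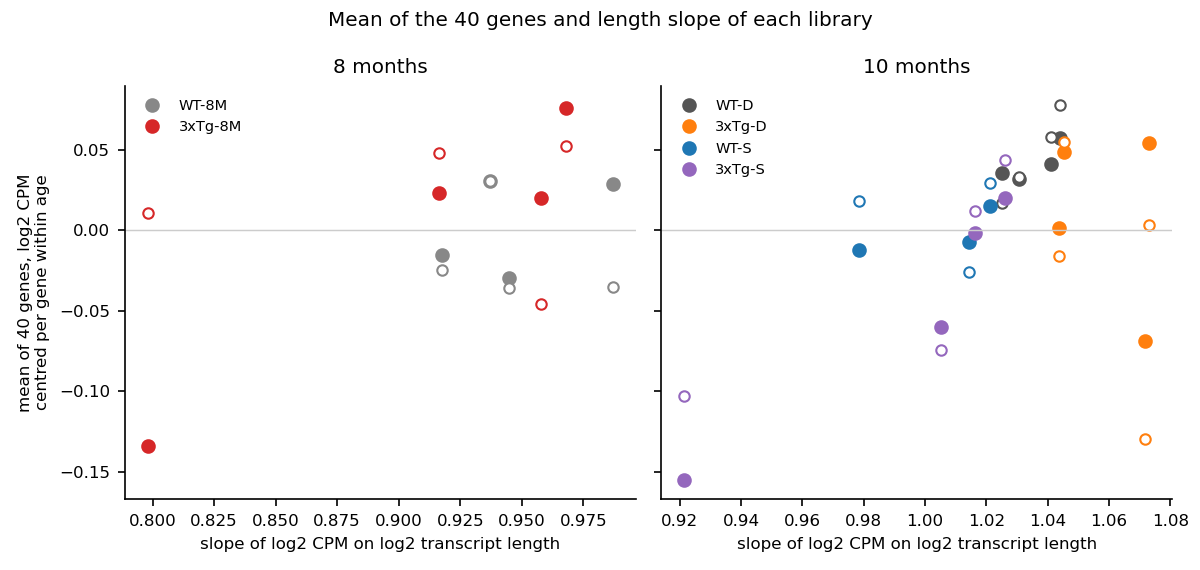
Mean of the 40 genes in each library (log2 CPM centred per gene within age, vertical axis) against the slope of log2 CPM on log2 transcript length (horizontal axis), at 8 and 10 months, coloured by group; filled points are as counted and open points have the length trend removed. The libraries with the lowest slopes, at 0.80 and 0.92, have the lowest means as counted.

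A list of 66 other postsynaptic genes (Homer, Dlgap, Nlgn, Lrrtm and Lrfn genes, remaining receptor and auxiliary subunit genes and others) was counted beside them. Grin3b and Grm6 were not tested for low counts, and of the other 64 genes 0 were called in each of the 6 pairwise comparisons. At an unadjusted p under 0.05 stood 11 of the 64 at 8 months (17.4% of all tested genes) and 5 under vehicle (13.1% of all). There were 6 for 3xTg-S against 3xTg-D (11.2% of all) and 1 for WT-S against WT-D (3.42% of all). For 3xTg-S there were 17 against WT-D (16.9% of all) and 6 against WT-S (10.6% of all). The median log2 fold change was 0.017 at 8 months and -0.053 under vehicle. Nearest to the threshold was Frrs1l, which encodes a protein of AMPA receptor assembly, with a log2 fold change of -0.31 at 8 months (adjusted p = 0.052, edgeR).

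Replicates of a group differed most in Grm8 and Grm4, both weakly expressed receptors. The median over the 6 groups of the coefficient of variation was 15.2% for Grm8 and 14.4% for Grm4, and 3.79% for Shank2 and 4.17% for Gria4, the most even genes. Grin2b, Camk2a and Grin2a had values of 11.9% to 12.1% despite their high counts.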

How the data were processed

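The deposited values were raw counts of reads per gene. Per the labels and the study's methods the authors prepared poly(A) libraries with unique molecular identifiers, used Trimmomatic 0.35 for trimming and STAR 2.5.1b for alignment to GRCm38; identifier collapse and strand setting are not given in the sources used here. The 4 lines naming no gene (24.7% to 30.9% of reads) were left out. Pairs of groups were compared in separate fits with edgeR 4.0.16 in R 4.3.3 (filterByExpr, TMM, quasi-likelihood test, Benjamini-Hochberg over all tested genes, adjusted p under 0.05 called; prior count 2). Interactions used 15 and 16 libraries. Depth was 12.8M to 36.7M counts; p-values measure spread between mice. The method was run on simulated counts with known changes, a fixed spread and no length trend between libraries. Recovery was required only for the larger of these changes, so the run does not bear on small changes or on the length trend. Length is that of the longest Gencode M21 transcript; its trend (natural spline, 4 df) was removed as an offset in an alternative. Other alternatives were DESeq2 size factors, the DESeq2 1.42.0 likelihood ratio test, no filter, length and GC trends removed, 1 fit of all 15 libraries of 10 months, a block for runs of 4 animal numbers, an unadjusted p under 0.01 and each library left out. The 40 genes and all lists were chosen with earlier results of these data known. Libraries are shown for called genes and for those with the smallest p in the strain comparisons, up to 8 genes. Grm3, Neto2, Gria2, Grin2d and Cacng3 were added after their values were seen. No protein sequences were used here. A further allele of the 3xTg strain is not reported here.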

Additional observations from a re-analysis of the deposited data

Results flagged for a closer look

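Within groups of 4 libraries, 10 of 200 combinations of gene and group (5%) had 1 library far from the other 3, by Dixon's ratio on the log2 scale, and chance alone flags about 1 group in 20. The mean of the 40 genes and the length slope passed the limit in 0 groups. WT-S, with 3 libraries, was not tested. Gria1 was low in WT-8M replicate 1 (1090 CPM, others 1273 to 1304 CPM) and in WT-D replicate 2 (1280 CPM, others 1359 to 1373 CPM). Grik3 was high in WT-8M replicate 1 (67.8 CPM, others 46.9 to 49.3 CPM). Grm8 was low in 3xTg-8M replicate 1 (9.10 CPM, others 12.05 to 12.34 CPM) and in 3xTg-D replicate 4 (7.86 CPM, others 11.1 to 11.6 CPM).

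3xTg-D replicate 3 was low for Cnih3 (37.0 CPM, others 42.6 to 43.7 CPM) and for Neto1 (175 CPM, others 216 to 224 CPM). Without it the log2 fold change of Cnih3 between 3xTg-D and WT-D was -0.24. 3xTg-8M replicate 4, the library with the lowest length slope, was low for Dlg2 (329 CPM, others 422 to 424 CPM) and Shank1 (315 CPM, others 390.7 to 406.9 CPM). Camk2a was high in 3xTg-D replicate 4 (3572 CPM, others 3042 to 3120 CPM).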

How the results depend on the processing

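Alternatives changed the number of genes called in several comparisons. At 8 months 2 of the 40 genes were called with no filter, by the DESeq2 likelihood ratio test and at an unadjusted p under 0.01. Under vehicle the block for runs of 4 animal numbers gave 0 (Cnih3, adjusted p = 0.064). No label says that these runs pair the mice. For 3xTg-S against 3xTg-D an unadjusted p under 0.01 gave 1. For 3xTg-S against WT-D, 4 were called with no filter, 3 by the DESeq2 likelihood ratio test and 3 at an unadjusted p under 0.01. For 3xTg-S against WT-S, 1 was called with no filter and 2 at an unadjusted p under 0.01. Among all tested genes, an unadjusted p under 0.01 (edgeR) was reached by 1066 of 15483 at 8 months. It was reached by 1026 of 15567 for 3xTg-S against WT-D and by 649 of 15664 against WT-S. For 3xTg-S against 3xTg-D the share over all tested genes was similar to that of the 40. These counts at 0.01 therefore do not set the 40 genes apart. Shares over all genes are not given here for the other alternatives. With 1 library left out, counts ran from 0 to 2 at 8 months, 0 to 0 under vehicle, 0 to 1 for 3xTg-S against WT-D and 0 to 1 against WT-S. The median of the 40 for WT-S against WT-D was -0.057 with no filter, -0.027 with the length trend removed and -0.050 to -0.022 with 1 library left out. With the length trend removed the median over all tested genes in this comparison was -0.022. Gria2 in 3xTg-S against 3xTg-D turned to 0.053 with length and GC trends removed. Grin2c at 8 months was called in 6 of the 6 fits that kept all libraries, and Cnih3 under vehicle in 7 of 8.

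No ratio passed its test, and several differences turned sign. With the length trend removed, 3xTg-S against 3xTg-D gave 0.011 for Grin2b to Grin2a, -0.023 for Gria1 to Gria2 and -0.0054 for Camk2b to Camk2a, and 3xTg-S against WT-D gave -0.013 for Camk2b to Camk2a. With 1 library left out, Grin2b to Grin2a ran from -0.054 to 0.027 for 3xTg-S against 3xTg-D and from -0.036 to 0.056 against WT-S. Gria1 to Gria2 ran from -0.018 to 0.13 at 8 months, -0.11 to 0.013 under vehicle, -0.017 to 0.088 for 3xTg-S against 3xTg-D and -0.080 to 0.046 against WT-D. Camk2b to Camk2a ran from -0.079 to 0.037 under vehicle, -0.022 to 0.082 for 3xTg-S against 3xTg-D, -0.052 to 0.12 for WT-S against WT-D, -0.063 to 0.053 for 3xTg-S against WT-D and -0.12 to 0.058 for 3xTg-S against WT-S. The cause was not tested.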
